A study of Mus musculus with 10 samples.

Results

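The Ifit and Ifitm genes are 2 families of interferon-induced antiviral genes, and 8 of their mouse members were followed here in whole lungs: Ifit1, Ifit2, Ifit3, Ifit3b, Ifitm1, Ifitm2, Ifitm3 and Ifitm6. They were taken by gene symbol from a table of 54532 genes, 4 members of each family, and all 8 passed the filter on low values. Lung mRNA was sequenced from wild-type C57BL/6J mice at postnatal day (P) 30. In the 5 mice with increased pulmonary flow (IPF), the abdominal aorta had been punctured into the inferior vena cava at P7, which makes a fistula that sends extra blood through the lungs. The 5 sham mice had the same anesthesia and laparotomy at P7 without the puncture, so that both groups share the wound. The question was how the antiviral families of the lung differed between the groups.

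IFIT proteins are cytosolic proteins with tetratricopeptide repeats that bind viral RNA, for which IFIT1 recognises caps without ribose methylation, and they form complexes with each other. IFITM proteins are small membrane proteins that hinder the fusion of enveloped viruses with cell membranes, IFITM3 mainly in endosomes and IFITM1 more at the cell surface, and IFITM3 is known for limiting influenza virus in the lung. Both families are switched on through interferon receptors, JAK kinases and transcription factors that bind the interferon-stimulated response element, while some IFITM genes are also expressed at high levels without infection.

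The stretches of promoter that hold this element are shown first because they differ between members that are otherwise close neighbours. RefSeq promoters of GRCm38.p6, running from 250 bases before to 50 bases after each start, were found for all 8 members and searched on both strands for GAAANNGAAA, the core of the element, whose reverse complement is TTTCNNTTTC. Capitals mark the matches, and each sequence is written 5′ to 3′ on the strand of its gene.
Ifit1, chr19:34640773-34640825, plus strand, 116 to 64 bases before the start: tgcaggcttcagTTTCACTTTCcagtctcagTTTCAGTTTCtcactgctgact
Ifit3, chr19:34583361-34583428, plus strand, 168 to 101 bases before the start: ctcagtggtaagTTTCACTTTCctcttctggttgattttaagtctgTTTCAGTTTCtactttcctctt
Ifit3b, chr19:34607757-34607824, plus strand, 200 to 133 bases before the start: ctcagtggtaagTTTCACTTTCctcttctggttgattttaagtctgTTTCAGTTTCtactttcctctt
Ifitm2, chr7:140955986-140956019, minus strand, 58 to 25 bases before the start: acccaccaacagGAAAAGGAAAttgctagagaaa
Ifitm3, chr7:141010716-141010742, minus strand, bases 3 to 29 of the transcribed part: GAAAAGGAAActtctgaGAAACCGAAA
Ifit1, Ifit3, Ifit3b and Ifitm3 held 2 matches each, Ifitm2 held 1, and the windows of Ifit2, Ifitm1 and Ifitm6 held none. The windows of Ifitm1 (chr7:140967826-140968125) and Ifitm6 (chr7:141016843-141017142) lie inside the genes as annotated for the levels. They do not reach the 5′ ends at 140967221 and 141017924, and the sequence around those ends was not searched. Of 32851 promoters of the same length, 3.44% held at least 1 match and 0.225% held 2 or more. The matches of Ifit1, Ifit3 and Ifit3b read the same letters, and the printed windows of Ifit3 and Ifit3b are identical over 68 bases, while their whole promoters share 75% of 268 aligned bases. A second motif, the gamma-activated site (TTCNNNGAA, the same on both strands), matched once each in Ifit2, Ifitm3 and Ifitm6 and in 8.30% of all promoters; the match of Ifitm3 overlaps its second response element. A match of letters is a description and not a shown binding site.

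Levels are given as FPKM, fragments scaled by gene length and library size as the authors deposited them. In the sham lungs, Ifitm3 (369.2 ± 41.5 FPKM, SD, n = 5) and Ifitm2 (187.7 ± 24.5) stood above every other member. Ifit3 (41.0 ± 3.84) and Ifitm1 (30.8 ± 4.02) followed, with ranges that overlapped. Ifit2 (9.65 ± 0.684), Ifit3b (8.62 ± 1.55) and Ifit1 (8.09 ± 1.04) could not be ordered beyond their spread, and Ifitm6 was lowest at 1.44 ± 1.22. The recovered depth was 16250190 to 19026843 reads per IPF lung and 15483046 to 17818542 per sham lung. The lowest member value, Ifitm6 in sham replicate 1, rested on 4 reads, whereas Ifitm3 rested on 3511 reads or more in every lung.

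Some features of the lungs touch every comparison that follows. The 9 defining lung markers (among them Sftpc of alveolar type II cells and Cdh5 of endothelium) were present in all samples and 0 of 9 passed the test. Sham replicate 1 stood apart from the rest, with a mean Spearman correlation of 0.912 to the other lungs against 0.929 to 0.932 for the other 9. Xist, expressed from the inactive X chromosome, was at 26.8 to 43.2 FPKM in the IPF lungs and 0.0301 to 0.0767 in the sham lungs, and the Y-linked genes Ddx3y, Uty, Kdm5d and Eif2s3y were at 0 in every IPF lung and above 0 in every sham lung. Sex therefore divided the lungs exactly as the operation did, and their parts in any difference between the groups cannot be told apart. In bulk lung, fewer cells of a type and less RNA per cell cannot be told apart either.

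Ifit1 and Ifitm3 were higher in the IPF lungs, and the other 6 members did not pass the test, although Ifitm6 did with limma voom on recovered reads. The fit was limma with trended variances on log2(FPKM + 0.1), a scale that understates the change of low genes, with Benjamini-Hochberg adjustment over 20448 genes. An adjusted p under 0.05 was reached by 2 of 8 members, both higher in IPF, beside 5.85% of all genes tested in either direction (3.71% higher and 2.14% lower in IPF). None of the 8 also had an absolute log2 fold change above 1 (0 of 8, beside 1.14% of all genes), and 3 of 8 had an unadjusted p under 0.05 (19.5% of all genes). The log2 fold change was above 0 for 8 of 8 members, with a median of 0.32, while the median of all genes tested was 0.00 and 50.4% of them were above 0. Without IPF replicate 5 the median was 0.13 for the Ifit genes and 0.29 for the Ifitm genes. The members were chosen with results of these data known, so no p was computed over the list.

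**Figure D1:**
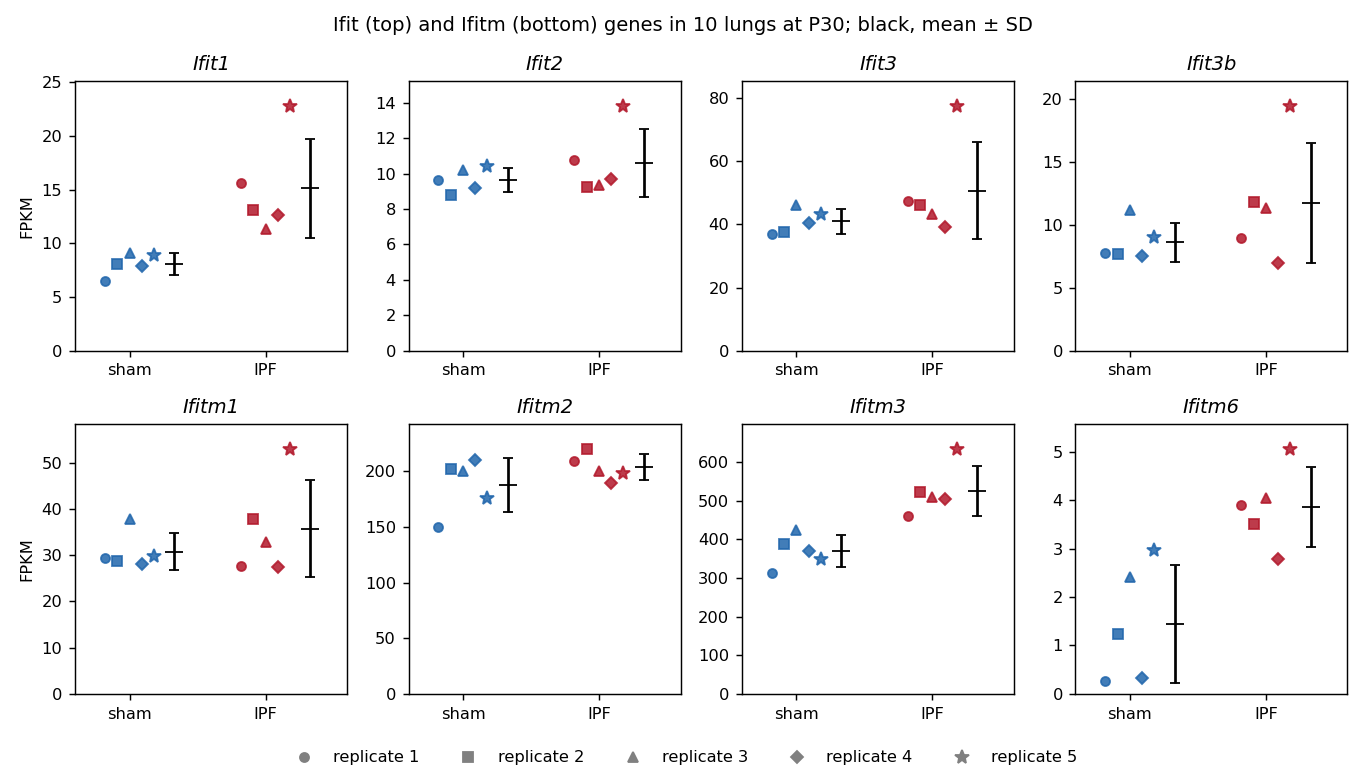
FPKM (linear axes from 0) of each member in the 5 sham (blue) and 5 IPF (red) lungs, marker shape giving the replicate number and black bars the mean ± SD. The groups are apart for Ifit1 and Ifitm3, touch through 1 IPF lung for Ifitm6, and overlap for the other 5 members, with IPF replicate 5 (star) the highest lung for 7 of 8.

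Ifit1 (ENSMUSG00000034459, GRCm38 chr19:34640871-34650009, plus strand) was the Ifit gene that separated the groups. Its levels were 15.6, 13.1, 11.4, 12.6 and 22.8 FPKM in IPF replicates 1 to 5 and 6.49, 8.06, 9.10, 7.87 and 8.94 FPKM in sham replicates 1 to 5. Every IPF lung lay above every sham lung, as for 4.52% of all genes tested, and 7.29% had no overlap in either direction. The log2 fold change was 0.86 (SE 0.17, 95% interval 0.48 to 1.23), a 1.81-fold difference, with an adjusted p of 0.0141 by limma. The exact two-sided permutation test of the 10 values gave p = 0.00794, the smallest that 5 against 5 can give. Without IPF replicate 5 the IPF lungs still lay at 11.4 to 15.6 FPKM and the log2 fold change was 0.70 (adjusted p = 0.00486), and without sham replicate 1 it was 0.78 (adjusted p = 0.0326).

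Ifit2 (ENSMUSG00000045932, chr19:34550694-34576419, plus strand), needed in mice for defence of the brain against vesicular stomatitis virus, was nearly level between the groups. It stood at 10.8, 9.27, 9.36, 9.70 and 13.8 FPKM in the IPF lungs and at 9.64, 8.79, 10.2, 9.19 and 10.4 FPKM in the sham lungs. Only IPF replicates 1 and 5 lay above all sham lungs. The log2 fold change was 0.12 (95% interval -0.12 to 0.35, adjusted p = 0.598 by limma), a fold of 1.09 with limits of 0.922 and 1.28, and it was 0.02 without IPF replicate 5.

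Ifit3 (ENSMUSG00000074896, chr19:34583531-34588731, plus strand), which encodes a partner of other IFIT proteins, was the most abundant Ifit mRNA per length. Its levels were 47.3, 46.0, 43.2, 39.3 and 77.7 FPKM in the IPF lungs and 37.0, 37.7, 46.2, 40.5 and 43.4 FPKM in the sham lungs. The groups overlapped, and IPF replicate 5 stood well above the other 9 lungs. A log2 fold change of 0.27 (95% interval -0.08 to 0.61) did not pass the test (adjusted p = 0.391 by limma), and it was 0.10 without that lung (adjusted p = 0.530).

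Ifit3b (ENSMUSG00000062488, chr19:34607970-34613401, plus strand), a close copy of Ifit3, stood at 8.96, 11.8, 11.3, 6.94 and 19.4 FPKM in the IPF lungs and at 7.73, 7.67, 11.2, 7.54 and 8.98 FPKM in the sham lungs. Its lowest and its highest level were both in IPF lungs. Its log2 fold change was 0.37 (95% interval -0.14 to 0.87, adjusted p = 0.423 by limma) and 0.16 without IPF replicate 5. Of the 150-base windows of the main transcript, 15.3% of those of Ifit3 also occur in Ifit3b and 15.6% of those of Ifit3b in Ifit3, so that the split of reads between these copies is uncertain. For Ifit1 the share was 0.426%, in Ifit1bl2, and for Ifit2 it was 0%.

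**Figure D2:**
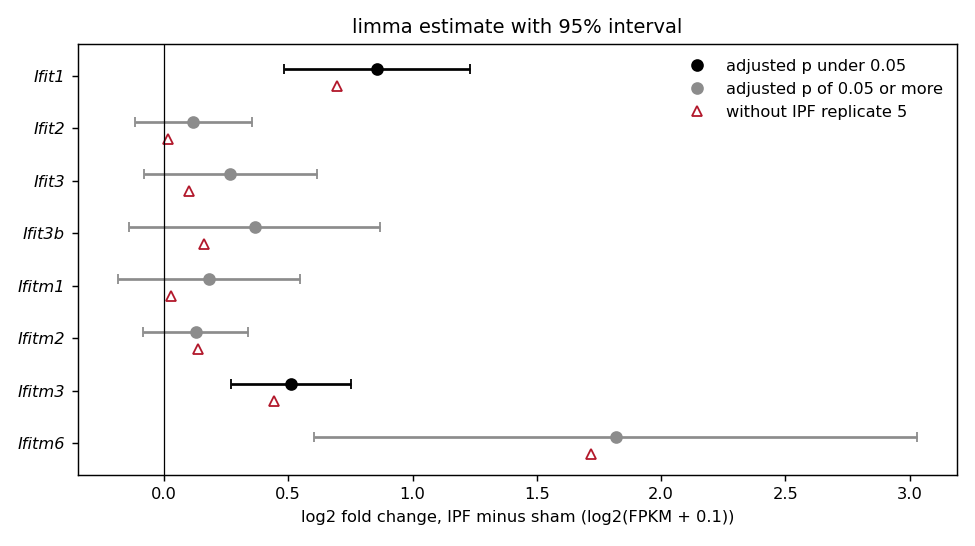
Log2 fold change (IPF minus sham, log2(FPKM + 0.1)) of each member with its 95% interval from limma, black where the adjusted p was under 0.05 and grey otherwise, with the estimate without IPF replicate 5 as a red triangle. The intervals of Ifit1, Ifitm3 and Ifitm6 lie above 0, and those of the other 5 members include 0.

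Among the Ifitm genes, Ifitm3 (ENSMUSG00000025492, chr7:141009586-141010770, minus strand) separated the groups, and it was also the most abundant member. Its levels were 459.9, 522.0, 509.6, 505.7 and 634.7 FPKM in the IPF lungs and 314.2, 387.0, 425.2, 370.4 and 349.1 FPKM in the sham lungs. No IPF lung fell into the sham range. The log2 fold change was 0.51 (SE 0.11, 95% interval 0.27 to 0.75), a fold of 1.42 with limits of 1.20 and 1.69, with an adjusted p of 0.0203 by limma and an exact permutation p of 0.00794. Its estimate was 0.44 on the log2 scale without IPF replicate 5 (adjusted p = 0.0224) and 0.45 without sham replicate 1 (adjusted p = 0.0320), but without sham replicate 5 the adjusted p was 0.0508 at 0.49. With no filter on low values the adjusted p of Ifitm3 was 0.0579 by limma. Of the 150-base windows of Ifitm3, 56.1% also occur in Gm57251, a gene of a later annotation that was not analysed here.

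Ifitm2 (ENSMUSG00000060591, chr7:140954837-140955987, minus strand), an endosomal relative of Ifitm3, was at 209.7, 220.4, 200.7, 189.5 and 198.7 FPKM in the IPF lungs and at 150.4, 202.3, 200.3, 210.1 and 175.7 FPKM in the sham lungs. The groups overlapped, and the lowest value belonged to sham replicate 1. Its log2 fold change was 0.13 (95% interval -0.08 to 0.34, adjusted p = 0.513 by limma) and 0.05 without sham replicate 1. For Ifitm2, 14.9% of the windows occur in other genes, of which Gm45717 lies over it on the same strand and had 0 FPKM in every lung.

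Ifitm1 (ENSMUSG00000025491, chr7:140967221-140969825, plus strand) stood at 27.8, 37.7, 32.8, 27.4 and 53.0 FPKM in the IPF lungs and at 29.3, 28.6, 37.9, 28.1 and 29.8 FPKM in the sham lungs. Apart from IPF replicate 5, the IPF lungs lay within or just below the sham range. Its log2 fold change was 0.18 (95% interval -0.19 to 0.55, adjusted p = 0.607 by limma) and 0.03 without that lung.

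Ifitm6 (ENSMUSG00000059108, chr7:141015699-141017924, minus strand), known mainly from myeloid cells, had the largest fold change of the 8 and the least certain one. Its levels were 3.89, 3.51, 4.03, 2.79 and 5.06 FPKM in the IPF lungs, from 60, 53, 69, 46 and 81 reads. In the sham lungs they were 0.268, 1.23, 2.41, 0.332 and 2.97 FPKM, from 4, 20, 35, 5 and 41 reads. Of the IPF lungs, 4 of 5 lay above all sham lungs, and IPF replicate 4 lay below sham replicate 5. Its log2 fold change was 1.82 (SE 0.55, 95% interval 0.60 to 3.03), a fold of 3.53 with limits of 1.52 and 8.17, and missed the threshold by limma (adjusted p = 0.0847), while the exact permutation test of this gene alone gave p = 0.0159. With limma voom on recovered reads it passed (1.94, adjusted p = 0.0212). Without sham replicate 1 it was 1.42 (adjusted p = 0.143), and without sham replicate 5 it was 2.19 (adjusted p = 0.0385). With a pseudocount of 1 in place of 0.1 it was 1.13.

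Set side by side, the median log2 fold change was 0.32 for the Ifit genes and 0.35 for the Ifitm genes, each family with 1 of 4 members past an adjusted p of 0.05. For Ifitm this count was 0 with no filter on low values and 2 with limma voom on recovered reads. Without IPF replicate 5 the medians were 0.13 and 0.29. The mean log2(FPKM + 0.1) of the 4 Ifit genes was 4.09 ± 0.37 in IPF and 3.69 ± 0.15 in sham lungs, and that of the 4 Ifitm genes was 5.94 ± 0.20 and 5.29 ± 0.42 (SD, n = 5 each). Ifit less Ifitm was -1.80, -1.96, -2.01, -1.95 and -1.54 in the IPF lungs and -1.19, -1.78, -1.84, -1.34 and -1.81 in the sham lungs. The groups overlapped, with means of -1.85 and -1.59 that differed by -0.26. Left without Ifitm6, the difference between the groups was 0.13, again with overlap, so that the sign of Ifit against Ifitm rested on the least abundant member. Summed over each family, Ifitm ran from 701.3 to 891.6 FPKM in IPF and from 494.2 to 665.8 in sham lungs without overlap (as for 4.52% of single genes, higher in IPF). Without Ifitm3 the Ifitm sums overlapped, at 219.7 to 261.6 and 180.0 to 240.5 FPKM. The Ifit sums overlapped too (88.1 ± 26.1 against 67.3 ± 6.68 FPKM).

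Levels of members relative to each other were taken within each lung, setting the members that passed the test beside others that did not. These ratios were chosen after the values were seen, so they carry no test. In each lung Ifit1 made up 15.1% to 18.9% of the summed Ifit FPKM in the IPF group and 10.7% to 12.9% in the sham group. The ratio of Ifit1 to Ifit2 was 1.41 ± 0.165 in IPF and 0.839 ± 0.0963 in sham lungs (SD, n = 5 each), with no overlap, so that Ifit1 exceeded Ifit2 in all 5 IPF lungs and stayed under it in all 5 sham lungs. The ratio of Ifit1 to Ifit3 went from 0.197 in sham to 0.299 in IPF lungs, also with no overlap. Ifit3 took 57.2% to 58.1% of its family in IPF and 60.2% to 62.2% in sham lungs, and the ratio of Ifit3 to Ifit3b overlapped (4.53 ± 0.869 and 4.81 ± 0.447).

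In the Ifitm family, Ifitm3 made up 65.6% to 71.2% of the summed Ifitm FPKM in IPF and 60.8% to 63.9% in sham lungs, and Ifitm2 made up 22.3% to 29.9% and 30.1% to 34.5%. The ratio of Ifitm3 to Ifitm2 was 2.19, 2.37, 2.54, 2.67 and 3.19 in the IPF lungs and 2.09, 1.91, 2.12, 1.76 and 1.99 in the sham lungs. Each IPF lung was above each sham lung, but the lowest IPF value and the highest sham value were close. Ifitm3 to Ifitm1 overlapped (15.3 ± 2.49 and 12.1 ± 1.22). A ratio within a lung does not show that 1 member stayed still.

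**Figure D3:**
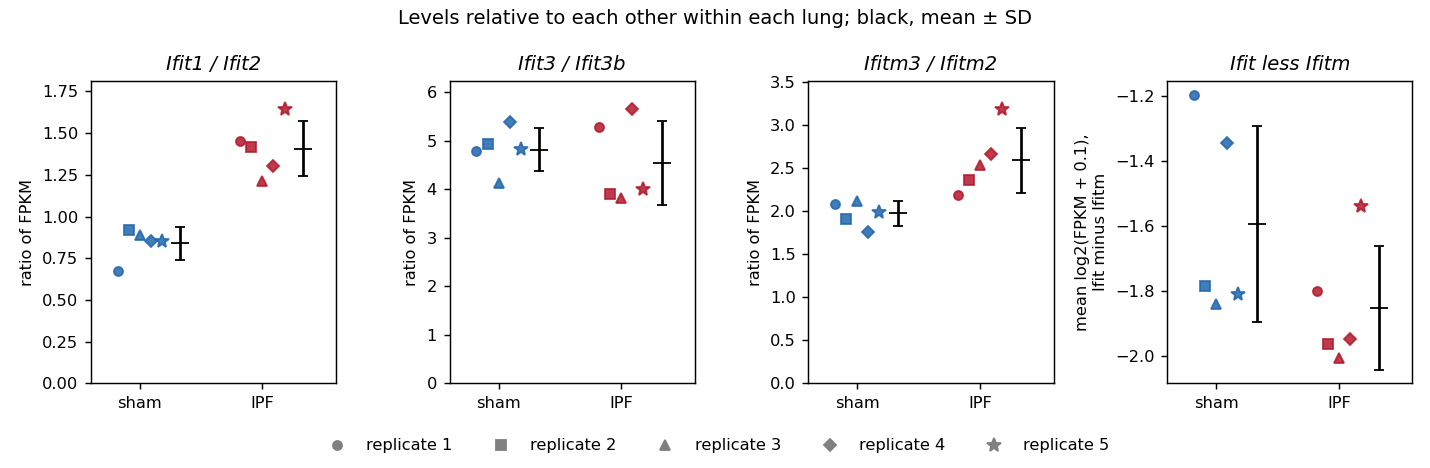
Ratios of FPKM of Ifit1 to Ifit2, Ifit3 to Ifit3b and Ifitm3 to Ifitm2 (axes from 0), and the mean log2(FPKM + 0.1) of the Ifit genes less that of the Ifitm genes (axis not from 0), in each sham (blue) and IPF (red) lung with mean ± SD in black. Ifit1 to Ifit2 and Ifitm3 to Ifitm2 do not overlap between groups, and the other measures do.

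Individual lungs carried much of the spread. IPF replicate 5 was the highest of 10 lungs for 7 of 8 members (all but Ifitm2), and sham replicate 1 was the lowest for 5 (Ifit1, Ifit3, Ifitm2, Ifitm3 and Ifitm6). Sham replicate 3 was the highest sham lung for 5 members and IPF replicate 4 the lowest IPF lung for 5. With both extreme lungs left out, Ifit1 was 0.62 higher on the log2 scale (adjusted p = 0.00548 by limma) and Ifitm3 0.38 higher (adjusted p = 0.0194), whereas the medians were 0.10 for Ifit and 0.22 for Ifitm.

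After each group mean was subtracted, the 6 Ifit pairs had Pearson correlations from 0.70 to 0.92 over the 10 lungs, with a median of 0.89. Without IPF replicate 5 they ran from 0.13 to 0.75, with a median of 0.60. The Ifitm pairs had a median of 0.41 (0.44 without that lung), and the 16 pairs between the families one of 0.49 (0.44 without it). The closest pair crossed the families, Ifit3b with Ifitm1 at 0.96, and 0.91 without IPF replicate 5. In each lung, the genes of a pair were read from the same library and so share its depth. These correlations are descriptions and carry no test.

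Among 13437 other genes with a mean of at least 1 FPKM, the closest within-group patterns were those of Osbpl2, a lipid-binding protein, to Ifit1 (0.98), of Fbxo21, a part of a ubiquitin ligase, to Ifit2 (0.97) and of Nop53, a ribosome assembly factor, to Ifit3 (0.98). Usp18, which encodes an enzyme that removes ISG15 and restrains interferon signaling, was the closest to Ifit3b (0.95) and the third closest to Ifitm1 (0.94), after Eif2a and Hsd17b11. Nudt3 was closest to Ifitm2 (0.98), the heme synthesis enzyme Urod (0.94) and Fcer1g (0.94) to Ifitm3, and the ribosome assembly factor Pes1 (0.95) to Ifitm6. Of these, Fcer1g, a signaling chain of Fc receptors on myeloid and other leukocytes, was itself higher in IPF (log2 fold change 0.41, adjusted p = 0.0468 by limma). So was Pim1, the second closest to Ifit1 (0.53, adjusted p = 0.0209). No other gene among the 3 closest to each member passed, beside 5.85% of all genes tested in either direction. With 10 lungs and so many genes, high correlations are easily reached, and these were not recomputed without IPF replicate 5.

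The positions of the members place the Ifit genes within 99316 bases of chromosome 19 and the Ifitm genes within 63088 bases of chromosome 7. Inside the Ifit cluster, Ifit1bl1 (0.30, adjusted p = 0.427) and Ifit1bl2 (0.38, adjusted p = 0.453) did not pass the test by limma. Beyond it, Pank1, which encodes a kinase of coenzyme A synthesis, was higher in IPF (0.36, adjusted p = 0.0301), and Ch25h, Gm26902, Lipa, Slc16a12 and Gm22082 did not pass. On the Ifitm side 0 of 6 neighbours passed, beside 5.85% of all genes tested in either direction (Cox8b, Pgghg, Ifitm5, Pkp3, Sigirr and Ano9). Among genes outside the 8 members, the bone gene Ifitm5 stood at 0.605 and 0.898 FPKM in IPF and sham lungs, Ifitm10 at 1.91 and 1.89 FPKM, and Ifitm7 had 0 reads in every lung. Of the further family genes, 0 of 4 tested passed, a count too small to set against that share.

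The interferon pathway around these genes was read from lists. The ligands were hardly detected: of 19 genes, 14 had 0 reads in all 10 lungs, and Ifnb1, Ifna5 and Ifna7 had at most 1 read in any lung. Such counts do not allow a comparison of ligands at this depth. Ifng, the type II interferon, had at most 5 reads in a lung, and only Ifnk was tested (-0.49, adjusted p = 0.733 by limma). Among 6 receptor genes, Ifnar2 (0.22, adjusted p = 0.0311) and Ifngr2 (0.33, adjusted p = 0.0311) were higher in IPF, and Ifnar1 stood at 19.2 ± 0.813 and 18.6 ± 1.12 FPKM (adjusted p = 0.730).

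Among the signaling genes and transcription factors, Stat2 (log2 fold change 0.32, adjusted p = 0.0287 by limma) and Irf9 (0.49, adjusted p = 0.0189), which act at the response element, were higher in IPF. Irf1 (0.36, adjusted p = 0.00344) and Irf7 (0.82, adjusted p = 0.0462), which drive interferon-induced and interferon genes, were higher too, while Jak1, Jak2, Tyk2 and Irf3 did not pass. Of 3 feedback inhibitors, Socs1 (1.26, adjusted p = 0.0142) and Socs3 (0.35, adjusted p = 0.0254) were higher, and Usp18 was at 8.09 ± 1.71 and 5.97 ± 0.747 FPKM (adjusted p = 0.0956).

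Of 31 other interferon-induced genes, 22 were higher in IPF and 0 were lower, beside 2 of 8 members and 3.71% of all genes higher. Their median log2 fold change was 0.72 and 30 of 31 were above 0, against the median of 0.32 of the members. Both medians include IPF replicate 5, and this comparison was not tested. Isg15, a ubiquitin-like modifier, was at 28.5 ± 6.35 FPKM in IPF and 12.0 ± 2.87 in sham lungs (1.26, adjusted p = 0.00373 by limma). Oas2 (1.26, adjusted p = 0.00874), which makes the activator of RNase L, Mx1 (1.06, adjusted p = 0.0118), an antiviral GTPase, and Rtp4 (1.06, adjusted p = 0.00179) also had larger ratios than Ifit1. Bst2, the membrane tether of budding virus, changed as much as Ifitm3 (0.51, adjusted p = 0.0296), and Rsad2 at 0.78 missed the threshold (adjusted p = 0.0524). In the promoter search, 13 of 23 of these genes with a RefSeq promoter (56.5%) held the response element, beside 5 of 8 members.

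Markers of leukocytes were read beside the members. The 9 neutrophil markers summed to 81.0, 56.7, 87.7, 69.8 and 305.3 FPKM in IPF replicates 1 to 5 and to 17.0, 42.8, 73.3, 21.5 and 89.0 FPKM in sham replicates 1 to 5. The groups overlapped and 0 of 9 markers passed the test by limma, although 9 of 9 had a log2 fold change above 0. IPF replicate 5, the highest lung for 7 members, was the highest here too, as it was for the sums of monocyte and alveolar macrophage markers, of interferon receptors, signaling genes and feedback inhibitors, and of the other interferon-induced genes. For B cell (30.7 FPKM) and plasmacytoid dendritic cell markers (11.4 FPKM), however, IPF replicate 5 was the lowest IPF lung. The T and NK cell sums were highest in IPF replicate 3. The 5 sham lungs had the same order for Ifitm6 as for the neutrophil sum, but the IPF lungs did not, with IPF replicate 4 lowest for Ifitm6 and IPF replicate 2 lowest for the sum.

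**Figure D4:**
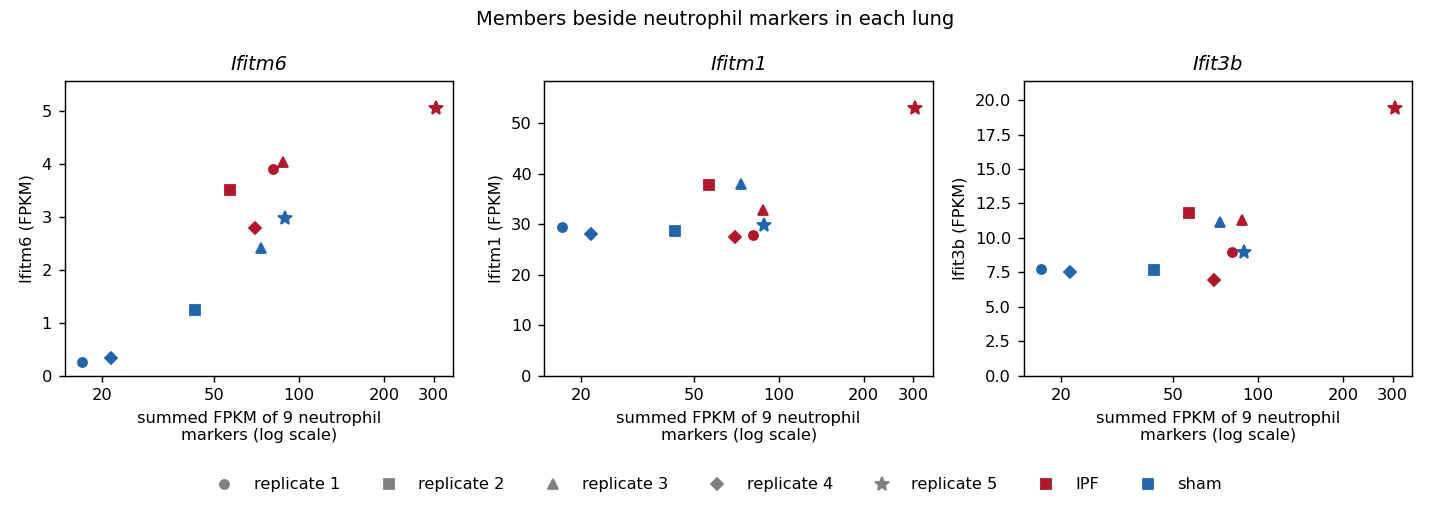
FPKM of Ifitm6, Ifitm1 and Ifit3b (linear axes from 0) against the summed FPKM of 9 neutrophil markers (log scale) in each IPF (red) and sham (blue) lung, with marker shape giving the replicate number. The sham lungs follow the order of the sum for Ifitm6 but not for Ifitm1 or Ifit3b, where sham replicate 3 is the highest sham lung, and IPF replicate 5, at 305.3 FPKM of markers, is the highest lung in all 3 panels.

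The monocyte sum was 70.7 to 81.6 FPKM in IPF and 40.6 to 53.0 in sham lungs, with 6 of 7 markers higher, beside 3.71% of all genes tested. B cell markers were at 30.7 to 45.7 and 16.5 to 27.2 FPKM (4 of 4 higher), NK cell markers at 13.8 to 21.3 and 5.97 to 11.7 (3 of 5 higher), and T cell markers at 9.89 to 13.2 and 6.77 to 9.50 (1 of 6 higher). In each of these 4 sums the groups did not overlap, as for Ifit1 and Ifitm3 and for 4.52% of all single genes tested, higher in IPF. Plasmacytoid dendritic cell (11.4 to 21.3 and 8.29 to 14.7 FPKM, 0 of 4), alveolar macrophage (195.9 to 352.8 and 184.2 to 326.6, 0 of 4) and ciliated cell markers (164.3 to 288.6 and 163.5 to 251.9, 0 of 6) overlapped. None of these lists had a marker at 0 in every lung, and the part of these cells in the levels of Ifit1, Ifitm3 and Ifitm6 was not tested.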

How the data were processed

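The deposited values are FPKM per gene for 10 lungs, for which the paper describes trimming by Fastp, alignment by HISAT2 and quantification by StringTie. The paper names the KAPA kit and GRCm39; the sample records name NEBNext Ultra, GRCm38, mm10 and hg38, and the processing notes list Bowtie 0.12.2. The last gene of chromosome 1 ends at 195323493, so positions are those of GRCm38. Other versions and the use of strand are not given in the sources used here. FPKM times length gave whole reads (within 0.02), hence the depth.

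Genes averaging 0.1 FPKM or more entered limma 3.58.1 (R 4.3.3) on log2(FPKM + 0.1), IPF against sham without covariates. DESeq2, used in the paper, was not run; the reads recovered from FPKM were tested with limma voom as an alternative. Permutation tests were exact and two-sided (scipy 1.17.1). In data simulated for IPF against sham, 81 of 100 genes of 2-fold and 97 of 100 of 4-fold change were recovered, with 16 false calls among 20410 genes. The simulation gave every gene the same dispersion, held no deviant lung and changed only genes averaging 1 FPKM or more. These shares are therefore not the sensitivity for members with a wider spread or a smaller change.

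The members and lists were chosen with earlier results of these data known. Named are the members, other family genes, the 3 nearest tested genes on each side of each cluster, list genes, and genes among the 3 closest in pattern to each member. Alternatives were pseudocounts of 1 and 0.01, other filters and scalings, no variance trend, a replicate block, limma voom on recovered reads and leaving out each lung; leaving out both extreme lungs was added after seeing the data. Deviations of lungs sharing a number hardly correlated (-0.02 to 0.10), so numbers were not treated as pairs. The p-values set each difference between groups against the spread between these samples. Their titles give age, group and number, and each was taken as a separate lung. Protein sequences were not used, and 1 gene of the signaling list is not reported here.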

Additional observations from a re-analysis of the deposited data

Results flagged for a closer look

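Of 16 sets of 5 lungs examined, 8 members in each group, 2 held a lung far from the other 4. Chance alone would give about 1 in 20 if the sets were independent. The same lungs recur across the members, so these sets are not. Ifit3 in IPF replicate 5 was at 77.7 FPKM, with the next lung at 47.3 FPKM, and this gap made up 0.791 of the range of the group. Ifitm1 in sham replicate 3 was at 37.9 FPKM, with the next lung at 29.8 FPKM, a gap of 0.821 of the range.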

How the results depend on the processing

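All 160 member log2 fold changes recomputed under 20 alternatives (10 of them without 1 lung) stayed above 0. Ifit1 kept an adjusted p under 0.05 in 20 of 20 (0.00437 to 0.0383) and Ifitm3 in 18 of 20 (0.00278 to 0.0579), the exceptions being no filter on low values (0.0579) and leaving out sham replicate 5 (0.0508). Ifitm6 passed with limma voom on recovered reads (1.94, adjusted p = 0.0212) and without sham replicate 5, and otherwise did not (up to 0.197). Hence 2 Ifitm genes passed with voom and 0 with no filter. With no filter more genes are tested, and the SE of Ifitm3 was 0.125 beside 0.110 as reported. Genes past both limits, 233 as reported, numbered 74 with a pseudocount of 1, which shrinks low genes, 154 with a stricter filter (mean FPKM from 1 up), and 171 to 299 without 1 lung; genes with an adjusted p under 0.05 numbered 775 to 1620 without 1 lung, 775 without IPF replicate 4, and the cause was not tested. The Ifit median was 0.13 to 0.44 without 1 lung, lowest without IPF replicate 5, and the Ifitm median 0.29 to 0.41; Ifit less Ifitm was -0.33 to -0.16, and -0.11 with a pseudocount of 1. With quantile normalization Ifitm3 was 0.35 higher. With a replicate block 1045 genes had an adjusted p under 0.05 and 202 passed both limits, with 1 Ifit and 1 Ifitm gene past an adjusted p of 0.05 (Ifit1 0.0279, Ifitm3 0.0375, Ifitm6 0.0585), so that pairing by number changed no call of a member. Ifitm6 rests on the fewest reads of the members, 4 to 81 per lung.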

Other observations

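A few further interferon-induced genes had the following values, with adjusted p by limma. Ifi47, an immunity-related GTPase of the kind that acts on the vacuoles of intracellular pathogens, stood at 18.2 ± 1.40 FPKM in IPF and 8.68 ± 1.02 in sham lungs (SD over 5 lungs each; log2 fold change 1.07, adjusted p = 0.000100). Igtp (0.83, adjusted p = 0.000811), Irgm1 (0.71, adjusted p = 0.00143), Gbp3 (0.91, adjusted p = 0.00874) and Gbp2 (0.56, adjusted p = 0.0173) were higher in IPF too. These genes were picked from the list after the values were seen, and they were not tested as a group. Ifi27l2a had the largest ratio of the list, at 60.3 ± 23.7 and 17.6 ± 7.23 FPKM (1.83, adjusted p = 0.00874), about the ratio of Ifitm6 at far higher levels.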
